A study of Mus musculus with 6 samples.

Results

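Apoptosis genes were examined by RNA sequencing in the lymphatic endothelium of the mouse dura mater, whose lymphatic endothelial cells (LECs) were isolated by a sort. The set was a hand-written list of 37 gene names covering the BCL2 family, caspases, their inhibitors and the death receptors, and all 37 were found among the 55401 genes of the tables. The rule that picked them used names and no expression value. The mice were wild type and had received an adeno-associated virus (AAV) into the cerebrospinal fluid of the cisterna magna. In the AAV-VEGF-C group the virus encoded full-length mouse VEGF-C, the growth factor of lymphatic vessels. In the AAV-CTRL group it encoded a soluble piece of the VEGF-C receptor VEGFR-3 that does not bind VEGF-C, so both groups carried an AAV with a transgene. The study's methods name male C57BL/6J mice, AAV serotype 9 and a sort for LYVE-1+, podoplanin+, CD31+ and CD45- cells, and the age at the sort is not in the labels. Each library came from 10 to 12 pooled meninges. The experiment was done 3 times, which gave 3 libraries a group, numbered 1 to 3 in both.

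Apoptosis is run by 2 linked routes. In the mitochondrial route the effectors BAX, BAK1 and BOK open the outer mitochondrial membrane. The anti-apoptotic proteins BCL2, BCL-XL, BCL-W and MCL1 hold BAX and BAK1 back. The BH3-only proteins, which sense stress or loss of growth factor, neutralise the anti-apoptotic proteins or activate BAX and BAK1. Released cytochrome c then assembles APAF1 and caspase-9 into the apoptosome, while XIAP blocks caspases and DIABLO removes that block. In the death receptor route FAS, TNFR1 or DR5 recruits FADD or TRADD, RIPK1 and caspase-8, and cFLIP, the product of *Cflar*, restrains caspase-8. Endothelial cells depend on growth factor signals for survival, and VEGF-C acting on VEGFR-3 is such a signal in lymphatic endothelium.

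The promoter sequences of 5 genes are shown because the results below turn on them. *Bbc3* and *Hrk* were the genes called between the groups, *Birc3* and *Casp4* were those called between the repeat experiments, and *Birc2* is the neighbour of *Birc3*. Each run covers 300 bases, from 250 before a transcription start to 50 after it, in RefSeq on GRCm38.p6, and is written 5′ to 3′ on the strand of the gene with every CG dinucleotide in capitals. Where RefSeq listed several starts, the window with the most CG was taken.
Bbc3: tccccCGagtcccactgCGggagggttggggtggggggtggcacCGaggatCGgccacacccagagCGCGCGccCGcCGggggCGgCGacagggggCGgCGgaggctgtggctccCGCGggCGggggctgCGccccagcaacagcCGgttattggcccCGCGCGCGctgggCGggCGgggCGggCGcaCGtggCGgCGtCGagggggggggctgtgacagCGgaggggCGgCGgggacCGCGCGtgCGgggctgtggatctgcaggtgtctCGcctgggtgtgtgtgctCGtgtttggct
Hrk: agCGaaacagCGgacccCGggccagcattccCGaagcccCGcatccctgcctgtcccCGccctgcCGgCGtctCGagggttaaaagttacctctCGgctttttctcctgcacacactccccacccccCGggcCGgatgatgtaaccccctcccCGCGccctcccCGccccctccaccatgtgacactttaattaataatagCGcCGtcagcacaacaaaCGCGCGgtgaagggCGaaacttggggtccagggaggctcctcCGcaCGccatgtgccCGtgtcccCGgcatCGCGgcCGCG
Birc3: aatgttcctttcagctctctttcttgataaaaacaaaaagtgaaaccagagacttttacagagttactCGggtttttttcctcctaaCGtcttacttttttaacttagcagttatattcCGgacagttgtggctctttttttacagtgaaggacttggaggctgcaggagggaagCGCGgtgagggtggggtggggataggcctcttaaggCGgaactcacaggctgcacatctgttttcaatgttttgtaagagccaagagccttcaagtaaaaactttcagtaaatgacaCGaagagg
Birc2: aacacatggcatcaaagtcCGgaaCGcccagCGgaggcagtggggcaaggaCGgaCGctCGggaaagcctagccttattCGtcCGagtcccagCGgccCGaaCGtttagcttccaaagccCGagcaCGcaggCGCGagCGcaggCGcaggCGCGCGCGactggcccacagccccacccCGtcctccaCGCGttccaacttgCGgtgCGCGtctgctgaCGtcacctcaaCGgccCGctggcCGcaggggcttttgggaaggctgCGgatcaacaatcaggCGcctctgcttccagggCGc
Casp4: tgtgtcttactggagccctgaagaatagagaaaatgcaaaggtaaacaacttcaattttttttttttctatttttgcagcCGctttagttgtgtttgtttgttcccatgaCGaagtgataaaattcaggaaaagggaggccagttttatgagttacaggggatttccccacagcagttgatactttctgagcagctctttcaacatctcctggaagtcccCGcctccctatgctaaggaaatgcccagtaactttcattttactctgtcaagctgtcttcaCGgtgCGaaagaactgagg
The windows held 39 CG dinucleotides for *Bbc3* (chr7:16310181-16310480, plus strand), 29 for *Hrk* (chr5:118169514-118169813, plus strand) and 34 for *Birc2* (chr9:7837008-7837307, minus strand). They held 7 for *Birc3* (chr9:7873121-7873420, minus strand) and 5 for *Casp4* (chr9:5308599-5308898, plus strand). Of the 37 genes, 32 had a window in the table, with a median of 22 CG, against 8 over the 27025 genes in it. At least 1 CG was present in 94.6% of all those windows, and 54.2% held fewer than 10. Fewer than 10 were found for 6 of the 32, *Bcl2l2*, *Casp8*, *Casp1*, *Casp4*, *Casp12* and *Birc3*. *Bik*, *Pmaip1*, *Bnip3l*, *Tradd* and *Tnfrsf10b* were not matched.

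The libraries differed in depth. The total counts ran from 6530269 to 12399498 in AAV-CTRL against 564475 to 3261935 in AAV-VEGF-C, so depth and treatment cannot be told apart. Counts in 1651 receptor, keratin-associated and defensin genes that endothelium is not known to use (silent families) took 186 ± 67.4 CPM (counts scaled to the library total, SD, n = 3) in AAV-CTRL against 4402 ± 2180 in AAV-VEGF-C (two-sided exact permutation p = 0.1, and no smaller p is possible with 3 libraries in each group). All 10 LEC markers, *Prox1*, *Lyve1*, *Pdpn* and *Flt4* among them, were detected in every library, with a summed level of 516 to 631 TPM (transcript abundance per gene length) in AAV-CTRL against 177 to 387 TPM in AAV-VEGF-C. Fibroblast markers were present too, at 1351 to 2837 TPM in AAV-CTRL against 319 to 1056 TPM in AAV-VEGF-C for 10 genes, none at 0 in AAV-CTRL and *Dpt* alone at 0 in AAV-VEGF-C 1. These are bulk samples, so fewer cells of a type and less RNA per cell cannot be told apart.

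All 37 genes had counts in every AAV-CTRL library, at mean levels from 0.16 to 114 TPM. In each of these libraries 36 of the 37 lay above the 95th percentile of the silent families in TPM. *Hrk* did not in AAV-CTRL 2 and 3. The highest was *Mcl1*, which encodes the short-lived anti-apoptotic protein MCL1, at 64.8, 144 and 133 TPM in AAV-CTRL 1, 2 and 3 and at 5.54, 63.0 and 66.5 TPM in AAV-VEGF-C 1, 2 and 3. *Bnip3l*, *Birc3*, *Tnfrsf1a*, *Bcl2l1* and *Cflar* followed with AAV-CTRL means of 62.4 ± 7.81, 53.9 ± 42.9, 41.5 ± 13.1, 29.3 ± 12.9 and 27.7 ± 9.10 TPM (SD, n = 3), and neighbours in this order overlapped between libraries. The lowest was *Hrk*, and *Bik*, *Fadd* and *Bid* lay below 2 TPM on average in that group. In AAV-VEGF-C the same 6 genes had the highest means, with *Mcl1* first at 45.0 ± 34.2 TPM and *Birc3* second at 30.0 ± 28.3 TPM, and *Hrk* was again the lowest.

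**Figure D1:**
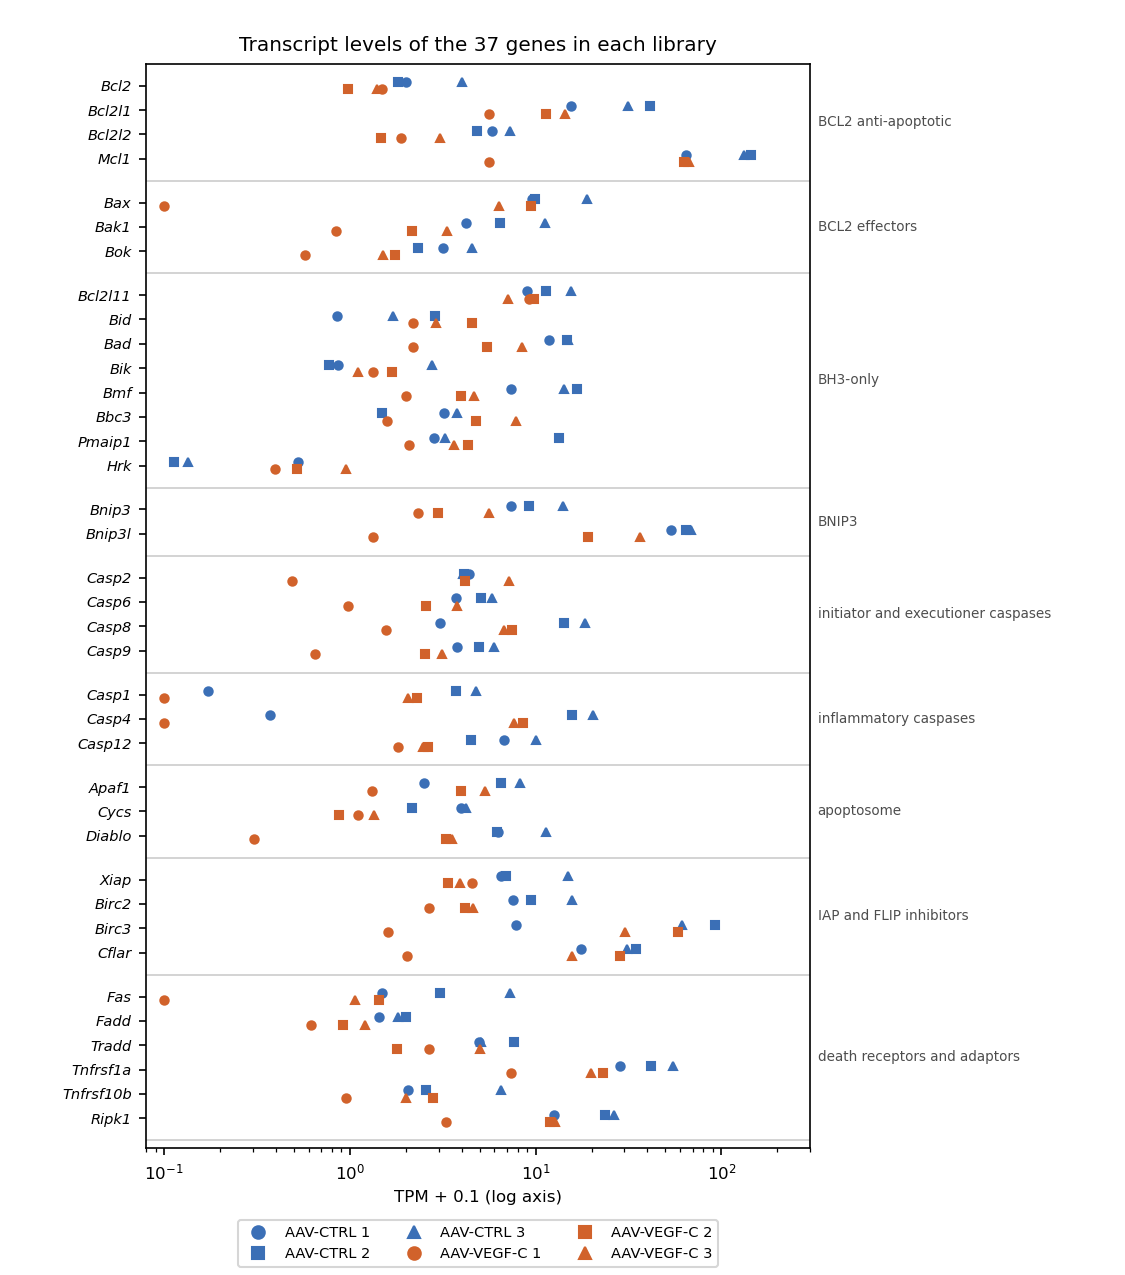
TPM plus 0.1 on a log axis for the 37 genes, grouped by role, with 1 symbol per library (blue AAV-CTRL, orange AAV-VEGF-C; circle, square and triangle are experiments 1, 2 and 3). By group mean *Mcl1* lies highest and *Hrk* lowest, though not in every library, the orange circle of AAV-VEGF-C 1 lies far to the left for many genes, and *Bax*, *Casp1*, *Casp4* and *Fas* are at 0 TPM in it.

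The shallow libraries held few counts for these genes. AAV-VEGF-C 1 had 3 counts or fewer for 11 of the 37, and 0 counts for *Bax*, *Casp1*, *Casp4* and *Fas*. The floor was taken as 3 counts, which stand for 5.31 CPM there when scaled to the library total. In the CPM scaled by TMM factors, which are given for single genes below, 3 counts in AAV-VEGF-C 1 stand for 6.93 CPM. In AAV-VEGF-C 2 and 3, 1 and 0 genes had 3 counts or fewer, and in each AAV-CTRL library 1 had. A count expected from background was computed for each gene from its exon length and the silent families of the same library. The observed count was under 2 times the expected one for 18 of the 37 genes in AAV-VEGF-C 1, for 3 in AAV-VEGF-C 2 and for 0 in AAV-VEGF-C 3. In AAV-CTRL 1, 2 and 3 this held for 0, 1 and 1 genes. Some of these genes lay below the expected count, such as *Bax* and *Diablo* in AAV-VEGF-C 1. The summed level of the 37 was 541 ± 188 TPM in AAV-CTRL against 233 ± 141 TPM in AAV-VEGF-C, without overlap (exact permutation p = 0.1), while their summed CPM overlapped (1408 ± 405 and 1009 ± 371, exact permutation p = 0.3).

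The question of this comparison was which apoptosis genes differed in dural LECs after VEGF-C. With the quasi-likelihood test of edgeR at a Benjamini-Hochberg adjusted p under 0.05, 2 of the 37 genes were higher in AAV-VEGF-C, the BH3-only genes *Bbc3* and *Hrk*, or 5.41% of them, where 10.5% of the 17459 genes tested were higher. None of the 37 was lower, where 0.659% of all genes were, and DESeq2 and voom likewise called 2 higher and 0 lower, while limma on log2 TPM called 0 in either direction. At an unadjusted p under 0.05, 2 were higher and 4 were lower, *Bnip3l*, *Birc2*, *Bcl2l2* and *Casp12*, against 19.0% and 9.11% of all genes. In CPM scaled by TMM factors, 3 genes had no AAV-VEGF-C value as low as the highest AAV-CTRL value, *Bbc3*, *Hrk* and *Bik* (8.11% of the 37, against 22.3% of all genes). The 6 that were lower without overlap were *Bcl2l2*, *Bnip3l*, *Casp12*, *Birc2*, *Fas* and *Tnfrsf1a* (16.2%, against 17.6% of all genes). The shares of the 37 thus lay below those of the whole table for higher genes and near them for lower genes.

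The log2 fold change of AAV-VEGF-C over AAV-CTRL was negative for 28 of the 37 (75.7%), with a median of -0.32, against 50.2% and a median of -0.0037 over all genes tested. Over the 7234 genes averaging 5 TPM or more, 76.0% were negative with a median of -0.41, and of the 17 listed genes at that level 14 were negative with a median of -0.44. Over the 10225 genes tested that averaged less, 32.0% were negative with a median of 0.52, while 14 of the 20 listed genes at that level were negative, with a median of -0.17. The more abundant members thus had values near those of all genes at their level and the less abundant ones lower values, a description with no test of the difference. The zero point depended on the scaling. With factors from the 2000 most abundant genes, all genes tested had a median of 0.35, the 37 had one of 0.03 and 17 of them were negative, while the difference between both medians stayed at -0.32. In TPM, 19 of the 37 were lower without overlap (51.4%, against 36.4% of all genes tested) and none was higher (12.8% of all genes were).

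**Figure D2:**
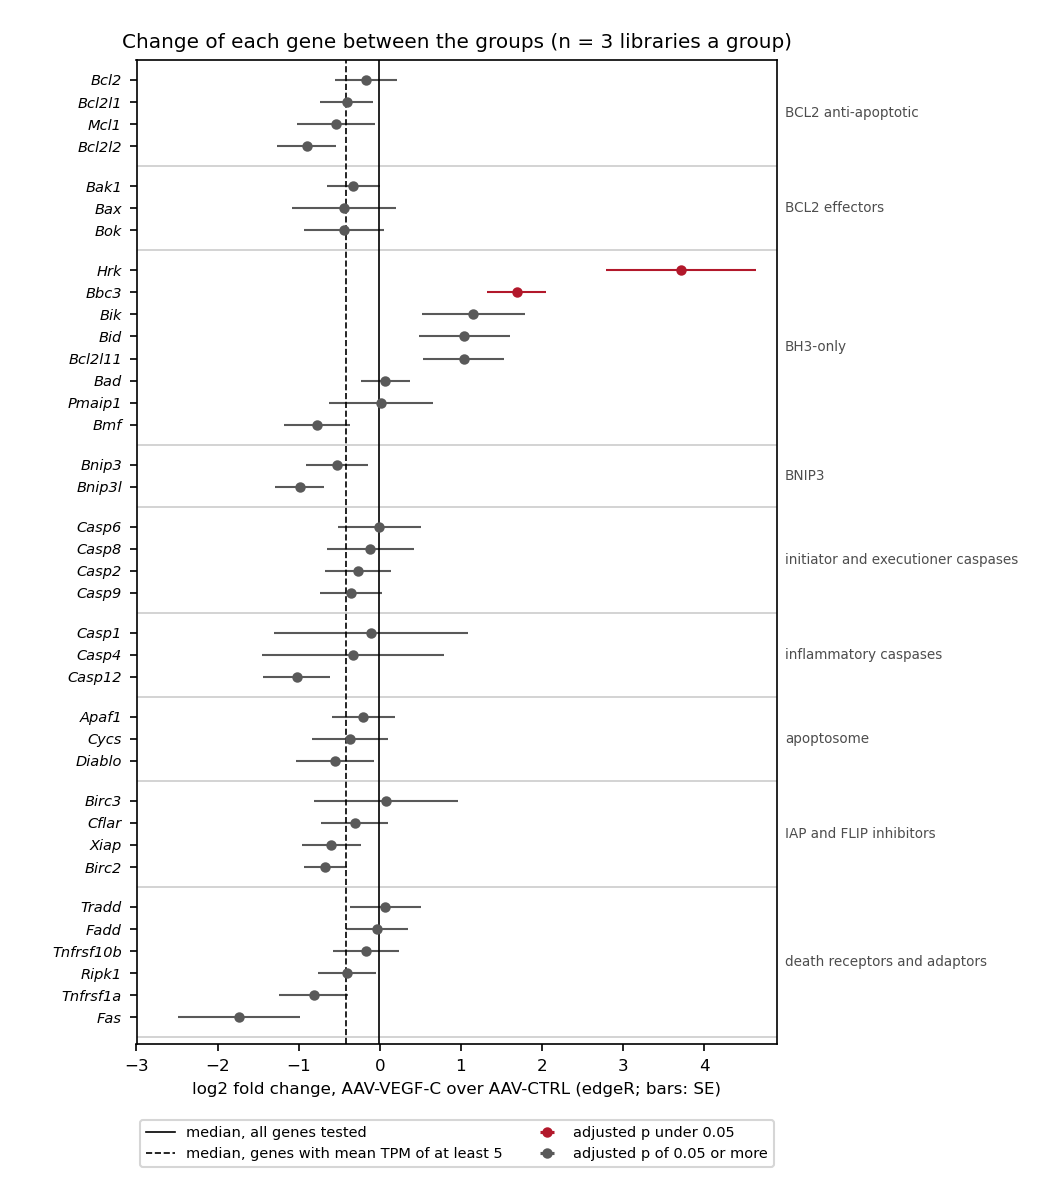
The log2 fold change of each gene, AAV-VEGF-C over AAV-CTRL, with its SE as a bar (edgeR, n = 3 libraries a group), grouped by role. *Hrk* and *Bbc3*, in red, had an adjusted p under 0.05, 7 of the 8 BH3-only genes lie right of 0, and 27 of the 29 other genes lie left of it with TMM scaling (16 of the 29 when scaled on the 2000 most abundant genes). Of all genes tested 50.2% were negative, and 32.0% of those averaging under 5 TPM.

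Of the 8 BH3-only genes, 2 passed the test, both as higher, where 10.5% of all genes tested were higher. The difference between this role and the others was not tested. With TMM scaling 7 of the 8 had a positive log2 fold change, *Pmaip1* (0.01) and *Bad* (0.07) close to 0, and *Bmf* had a negative one. The median of the 8 was 1.04, and among the 29 other genes 27 were negative, with a median of -0.37. Of all genes tested 50.2% were negative. *Bbc3*, *Hrk*, *Bid*, *Bik* and *Pmaip1* averaged under 5 TPM, a level at which 32.0% of all genes tested were negative, with a median of 0.52. *Bcl2l11* (1.03), *Bad* (0.07) and *Bmf* (-0.77) averaged more and were mixed. Role and abundance were not separated here. With the other scalings in edgeR 5 to 7 of the 8 were positive and 16 to 27 of the 29 negative, and in TPM (limma) 4 of the 8 were positive and all 29 negative, so that the median of the 8 was below 0 too (-0.18 on log2(TPM + 1)). The sum of the 8 did not separate the groups in either unit. It was 105, 169 and 102 CPM in AAV-CTRL against 256, 179 and 122 CPM in AAV-VEGF-C, and 35.5, 60.7 and 55.5 TPM against 20.2, 34.2 and 35.9 TPM.

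*Bbc3* encodes PUMA, a BH3-only protein induced by p53 and by loss of growth factor. Its counts were 43, 32 and 79 in AAV-CTRL 1, 2 and 3 against 8, 24 and 60 in AAV-VEGF-C 1, 2 and 3. Scaled to CPM these were 6.90, 4.07 and 5.35 in AAV-CTRL against 18.5, 17.2 and 17.3 in AAV-VEGF-C. The groups did not overlap in CPM and the 3 AAV-VEGF-C values lay close together, above the highest AAV-CTRL value. The log2 fold change was 1.69 (SE 0.37, edgeR adjusted p = 0.0278), a 3.24-fold difference of the CPM means, and the difference was positive in all 3 experiments (1.36, 1.95 and 1.60). In TPM the groups overlapped, at 3.10, 1.39 and 3.68 TPM against 1.48, 4.66 and 7.78 TPM, with AAV-VEGF-C 1 below AAV-CTRL 1. The counts were 5.45, 12.3 and 17.7 times the expected background in AAV-VEGF-C 1, 2 and 3 and 66.2, 67.2 and 124 times in AAV-CTRL. With the background subtracted the log2 fold change was 1.98 and the adjusted p 0.106. The call was lost without any single library other than AAV-CTRL 1 (adjusted p 0.0515 without AAV-VEGF-C 1, 0.0920 and 0.0911 without AAV-CTRL 2 and 3, 0.0880 and 0.104 without AAV-VEGF-C 2 and 3).

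*Hrk* encodes Harakiri, a BH3-only protein best known from neurons deprived of nerve growth factor. It had 8, 1 and 3 counts in AAV-CTRL against 4, 9 and 19 counts in AAV-VEGF-C, or 1.28, 0.13 and 0.20 CPM against 9.24, 6.45 and 5.46 CPM. The CPM did not overlap, and the log2 fold change was 3.71 (SE 0.92, edgeR adjusted p = 0.0402). The counts expected from background were 3.93, 5.21 and 9.07 in AAV-VEGF-C, so the observed counts were 1.02, 1.73 and 2.09 times that background, and 4.61, 0.79 and 1.76 times in AAV-CTRL. Thus *Hrk* lay within about 2-fold of background in 5 of the 6 libraries, and its level in TPM exceeded the 95th percentile of the silent families in only 1 library. Its call was also lost without any single library other than AAV-CTRL 1 (adjusted p 0.0799 to 0.117).

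**Figure D3:**
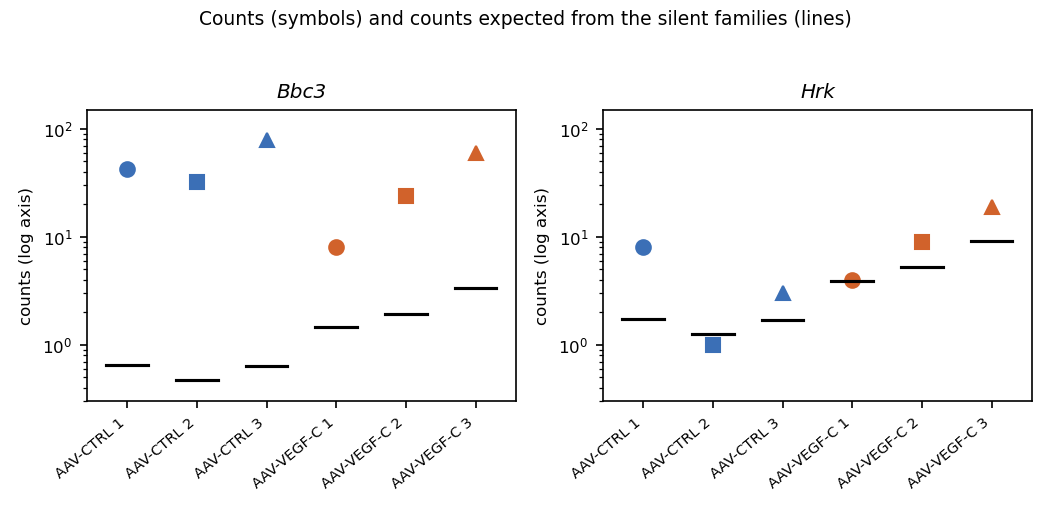
Counts of *Bbc3* and *Hrk* in each library (symbols, log axis) and the count expected from the silent families for a gene of that exon length (black lines). *Bbc3* lies above the line in all 6 libraries, at 5.45 times the expected count in AAV-VEGF-C 1, and *Hrk* lies on or near the line in the AAV-VEGF-C libraries.

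The other BH3-only genes did not pass the test. *Bcl2l11*, which encodes BIM, was the most abundant of them in AAV-VEGF-C and had 36.6, 49.6 and 41.2 CPM in AAV-CTRL against 162, 68.1 and 38.8 CPM in AAV-VEGF-C. AAV-VEGF-C 1 alone lay far above the others, and AAV-VEGF-C 3 lay inside the AAV-CTRL range. *Bid*, whose protein links caspase-8 to the mitochondrion, had 3.21, 8.14 and 3.79 CPM against 11.6, 14.3 and 6.33 CPM, with overlap at AAV-VEGF-C 3. *Bik*, a BH3-only gene of the endoplasmic reticulum, had 1.77, 1.14 and 2.51 CPM against 6.93, 3.58 and 3.16 CPM, without overlap but on 3, 5 and 11 counts in AAV-VEGF-C. *Pmaip1*, which encodes the MCL1 antagonist NOXA, had 10.8, 36.9 and 7.92 CPM against 20.8, 24.4 and 12.1 CPM. *Bad*, whose protein is held inactive by survival kinases, had 14.6 to 20.1 CPM in AAV-CTRL and 16.2 to 20.4 CPM in AAV-VEGF-C, so its groups coincided. *Bmf*, whose protein responds to loss of attachment, had 25.5, 48.6 and 26.6 CPM against 11.6, 26.5 and 18.7 CPM.

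The 4 anti-apoptotic genes all had negative log2 fold changes, from -0.90 to -0.17 (3 of the 4 when scaled on the 2000 most abundant genes), and none passed the test. *Mcl1* had 180, 410 and 330 CPM in AAV-CTRL against 94.7, 302 and 232 CPM in AAV-VEGF-C, lower in each experiment but overlapping between groups. *Bcl2l1*, which encodes BCL-XL, had 49.5, 92.2 and 57.3 CPM against 60.1, 43.0 and 48.3 CPM. *Bcl2*, the founding member, had 15.7, 16.2 and 22.8 CPM against 25.4, 12.2 and 14.1 CPM. In both of these genes AAV-VEGF-C 1 lay above its partner AAV-CTRL 1 in CPM. In TPM it lay below, at 5.50 against 15.5 for *Bcl2l1* and 1.39 against 1.91 for *Bcl2*. The *Bcl2* value in AAV-VEGF-C 1 rests on 11 counts, 1.74 times the count expected from background. *Bcl2l2*, which encodes BCL-W, was the one without overlap, at 34.5, 21.4 and 23.4 CPM against 9.24, 12.9 and 18.1 CPM. Its value in AAV-VEGF-C 1 rests on 4 counts, 1.30 times the count expected from background. *Mcl1* made up 73.7%, 75.2% and 75.8% of the summed TPM of the 4 in AAV-CTRL against 39.0%, 82.3% and 78.3% in AAV-VEGF-C.

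The effectors *Bax*, *Bak1* and *Bok* had log2 fold changes from -0.44 to -0.32 (2 of the 3 negative when scaled on the 2000 most abundant genes), and none passed the test. *Bax* was at 16.9, 14.8 and 16.4 CPM in AAV-CTRL and at 0, 16.5 and 14.4 CPM in AAV-VEGF-C, so that AAV-VEGF-C 1 alone set its mean lower. *Bak1* was at 13.8 to 18.6 CPM and 9.24 to 14.4 CPM, and *Bok* at 4.33 to 8.51 CPM and 4.31 to 5.73 CPM.

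Ratios within a library do not depend on the scaling between libraries, but they include background, which was not subtracted here. The silent families took 186 CPM on average in AAV-CTRL against 4402 CPM in AAV-VEGF-C. In AAV-VEGF-C 1, 2 and 3 *Mcl1* was at 17.3, 135 and 148 times the count expected from background, and *Bbc3* at 5.45, 12.3 and 17.7 times. The summed TPM of the 4 anti-apoptotic genes was 5.27, 10.4 and 5.09 times that of the 3 effectors in AAV-CTRL against 11.7, 5.86 and 7.77 times in AAV-VEGF-C, so the groups overlapped. The 8 BH3-only genes together reached 0.404, 0.316 and 0.317 of the anti-apoptotic sum in AAV-CTRL against 1.42, 0.447 and 0.422 in AAV-VEGF-C. The AAV-VEGF-C values were all higher, by little in libraries 2 and 3, and in AAV-VEGF-C 1 the high ratio came with the low *Mcl1* level of that library. *Bbc3* alone reached 0.0479, 0.0096 and 0.0278 of the *Mcl1* level in AAV-CTRL against 0.267, 0.0740 and 0.117 in AAV-VEGF-C, again without overlap. These ratios were formed after the member values were known and carry no test, and the part of background in them was not tested.

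**Figure D4:**
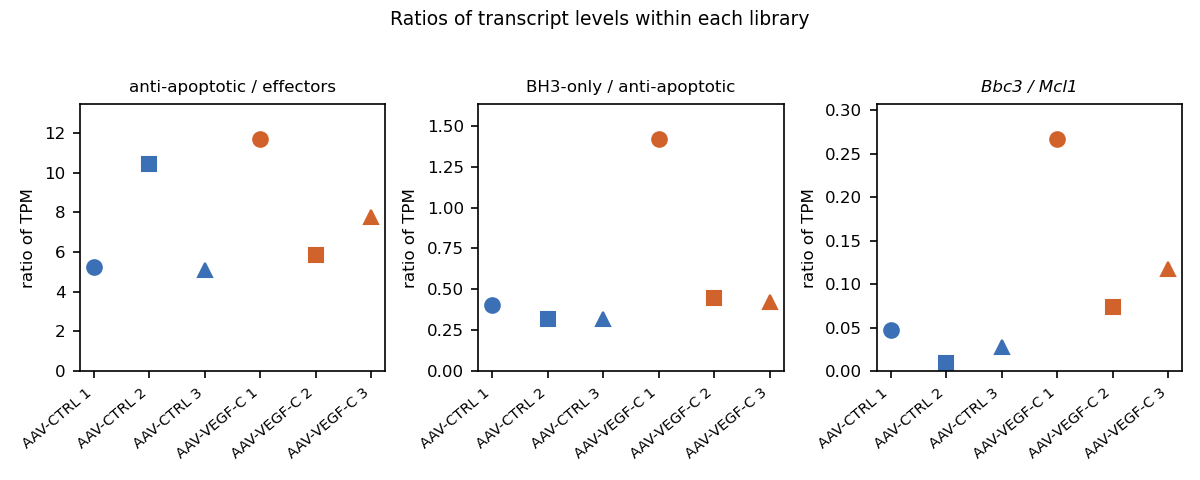
Ratios of TPM within each library for the anti-apoptotic genes over the effectors, the BH3-only genes over the anti-apoptotic genes, and *Bbc3* over *Mcl1*. The first overlaps between groups, and the other panels do not, with AAV-VEGF-C 1 highest at 1.42 and 0.267.

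*Bnip3l* and *Bnip3* encode receptors for the removal of mitochondria by autophagy and belong to the BCL2 family by a weak BH3 motif. *Bnip3l* was the second most abundant of the 37 in AAV-CTRL and had 49.9, 50.8 and 51.8 CPM there, against 16.2, 25.8 and 32.2 CPM in AAV-VEGF-C. The AAV-CTRL libraries lay within 2 CPM of each other and every AAV-VEGF-C library lay below them. The log2 fold change was -0.99 (SE 0.30), and with an edgeR adjusted p of 0.0806 it missed the threshold. It passed in the fit with no filter on low counts (adjusted p 0.0346), in which 44563 genes were tested, and in no other setting. *Bnip3* had 9.15, 9.67 and 10.8 CPM against 9.24, 6.45 and 6.04 CPM, with the groups touching at AAV-VEGF-C 1.

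None of the 4 initiator and executioner caspases passed the test. *Casp8*, the caspase of the death receptors, had 9.96, 37.1 and 32.2 CPM in AAV-CTRL against 13.9, 35.1 and 22.1 CPM in AAV-VEGF-C. *Casp9*, that of the apoptosome, had 16.5, 20.5 and 18.5 CPM against 6.93, 19.4 and 14.7 CPM. *Casp2*, an initiator that responds to DNA damage, ran from 8.40 to 12.7 CPM and from 6.45 to 10.6 CPM. *Casp6*, an executioner, ran from 7.39 to 10.0 CPM and from 2.31 to 11.8 CPM, the low value being 1 count. The 4 log2 fold changes lay between -0.36 and -0.0054, each within 1 SE of 0 (1 of the 4 negative when scaled on the 2000 most abundant genes), and the groups overlapped for each gene.

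The 3 apoptosome genes did not pass the test either. *Apaf1*, the scaffold, had 21.5, 38.9 and 37.1 CPM against 16.2, 38.7 and 27.3 CPM. *Cycs*, which encodes cytochrome c, had 7.25 to 11.8 CPM in AAV-CTRL and 5.02 to 11.6 CPM in AAV-VEGF-C. *Diablo* had 18.3, 15.6 and 17.5 CPM against 2.31, 15.8 and 13.5 CPM, where the lowest value was again 1 count in AAV-VEGF-C 1.

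A difference between the repeat experiments was larger than that between the groups for some genes. In a test of the experiment number, with the group as a second term (edgeR F-test, chosen after the values were seen), 2 of the 37 genes had an adjusted p under 0.05, *Casp4* (0.0117) and *Birc3* (0.0158), or 5.41%, against 2.35% of all genes. *Casp4* encodes caspase-11, the mouse sensor of bacterial lipopolysaccharide in the cytosol. It had 4, 199 and 266 counts in AAV-CTRL 1, 2 and 3 against 0, 28 and 39 counts in AAV-VEGF-C 1, 2 and 3. *Birc3* encodes cIAP2, an inhibitor of apoptosis induced by NF-κB, and had 154, 1165 and 1122 counts against 4, 244 and 252 counts. Experiment 1 was low in both groups for both genes, and experiments 2 and 3 were high in both. *Casp1*, which encodes the inflammasome caspase, had the same order with 1, 64 and 94 counts against 0, 13 and 10 counts, but its adjusted p of 0.114 missed the threshold. Without AAV-CTRL 2 neither *Casp4* (adjusted p 0.101) nor *Birc3* (0.0946) passed, without AAV-CTRL 1 *Birc3* alone and without AAV-VEGF-C 2 *Casp4* alone passed, and without AAV-VEGF-C 3 there were 5 calls, with *Casp1*, *Mcl1* and *Casp8* added.

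The experiments also differed in RNA of other cell types. The summed level of 12 leukocyte markers was 77.7, 2449 and 1886 TPM in AAV-CTRL 1, 2 and 3 and 17.9, 1217 and 853 TPM in AAV-VEGF-C 1, 2 and 3, although the sort excluded CD45+ cells. *Csf1r* was at 1.97 and 5.92 TPM in experiment 1, against 130 to 450 TPM in experiments 2 and 3. Zeros did not follow the experiments for every marker, since *S100a8* and *S100a9* were at 0 in both libraries of experiment 1 and in AAV-VEGF-C 2, *Cd3e* in AAV-CTRL 1 and AAV-CTRL 3, and *Adgre1* in AAV-VEGF-C 1. The sum of 10 blood endothelial markers was also lowest in experiment 1, at 91.3, 263 and 762 TPM in AAV-CTRL against 49.7, 107 and 96.7 TPM in AAV-VEGF-C, with *Mfsd2a* alone at 0, in AAV-CTRL 1. For 8 mural cell markers, none at 0, it was 99.5, 118 and 279 TPM against 14.5, 34.1 and 85.6 TPM. Within AAV-CTRL, *Acta2*, *Myh11*, *Rgs5* and *Tagln* were lowest in library 1, but *Cspg4* and *Kcnj8* were highest there. The fibroblast sum was highest in AAV-CTRL 1 of its group, at 2837, 1351 and 2349 TPM. In AAV-VEGF-C it was lowest in library 1, at 319, 485 and 1056 TPM. The leukocyte, blood endothelial and mural sums, *Casp4*, *Casp1* and *Birc3* thus shared the low values of experiment 1, unlike the fibroblast sum in AAV-CTRL. The part of RNA from other cell types in these genes was not tested. With both libraries of experiment 1 left out, an alternative added after seeing the data, *Bbc3* (log2 fold change 1.79, edgeR adjusted p = 0.0456) and *Hrk* (4.89, adjusted p = 0.0293) were again the only 2 of the 37 called between the groups.

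The genes called between experiments had close neighbours that were not called. *Birc3* lies on chromosome 9 (7848699-7873186, minus strand, GENCODE M21 on GRCm38), 11.6 kb from *Birc2* (7818227-7837064, minus strand), which encodes cIAP1. The TPM of *Birc3* was 1.03, 9.96 and 3.97 times that of *Birc2* in AAV-CTRL 1, 2 and 3 and 0.590, 14.2 and 6.72 times in AAV-VEGF-C 1, 2 and 3. The ratio in AAV-VEGF-C 1 rests on 4 counts of *Birc3* and 9 of *Birc2*. On the same chromosome *Casp1* (5298517-5307265), *Casp4* (5308828-5336783) and *Casp12* (5345430-5373032) follow each other on the plus strand with gaps of 1.56 and 8.65 kb. The TPM of *Casp4* was 0.0412, 3.53 and 2.04 times that of *Casp12*, a caspase of the endoplasmic reticulum, in AAV-CTRL against 0, 3.36 and 3.16 times in AAV-VEGF-C. The ratio of 0 in AAV-VEGF-C 1 rests on 0 counts of *Casp4* and 3 of *Casp12*. The neighbours *Birc2* and *Casp12* were lower without overlap in AAV-VEGF-C, at 6.93, 5.73 and 6.04 CPM against 13.6, 8.27 and 15.4 CPM for *Casp12*. The AAV-VEGF-C values of *Casp12* rest on 3, 8 and 21 counts, 1.13, 2.27 and 3.42 times the counts expected from background.

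**Figure D5:**
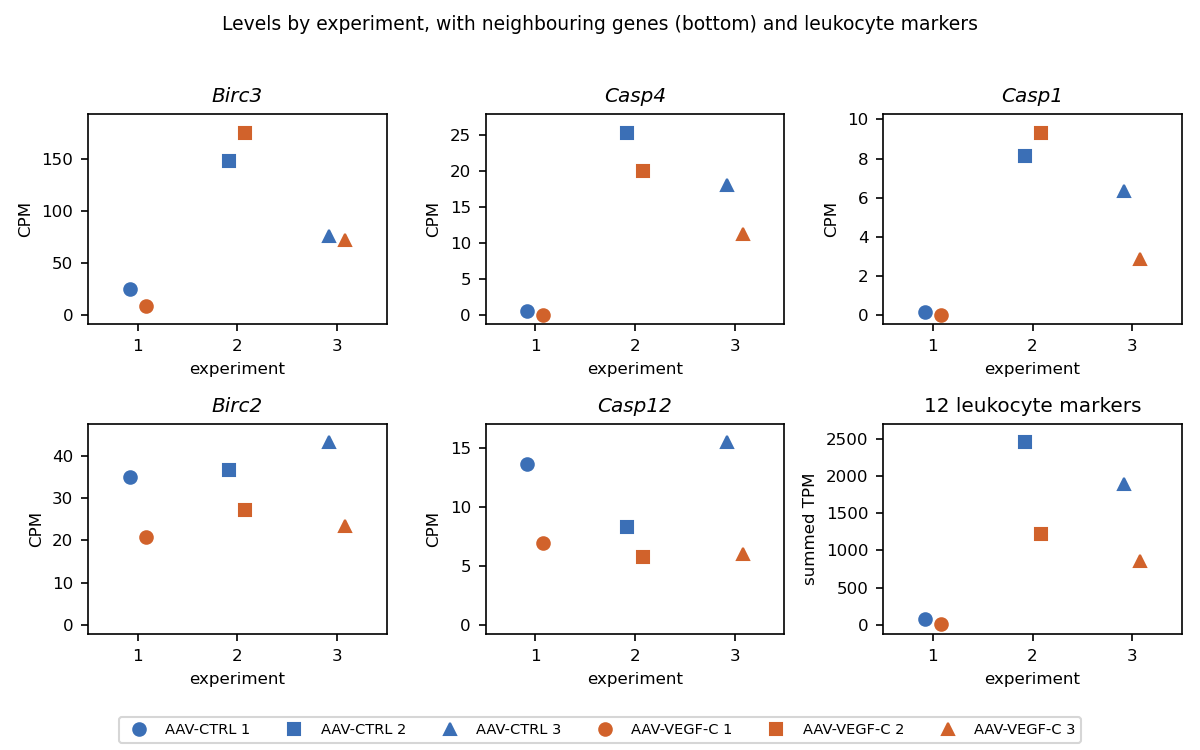
CPM of *Birc3*, *Casp4* and *Casp1* (top) and of *Birc2* and *Casp12* with the summed TPM of 12 leukocyte markers (bottom), by experiment number (blue AAV-CTRL, orange AAV-VEGF-C). The genes in the top panels and the markers are lowest in experiment 1 in both groups, and *Birc2* and *Casp12* are lower in orange in each experiment. The orange values of *Casp12* rest on 3, 8 and 21 counts.

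Among the inhibitors of apoptosis, *Birc2* had 35.0, 36.6 and 43.1 CPM in AAV-CTRL against 20.8, 27.2 and 23.3 CPM in AAV-VEGF-C. The groups did not overlap, but the log2 fold change of -0.67 (SE 0.27) had an edgeR adjusted p of 0.149. *Xiap*, the direct caspase inhibitor, had 46.4, 52.9 and 75.9 CPM against 55.5, 38.0 and 25.9 CPM, with AAV-VEGF-C 1 inside the AAV-CTRL range. *Cflar*, the caspase-8 inhibitor that neighbours *Casp8* on chromosome 1 at 36.5 kb, had 99.2, 125 and 129 CPM against 48.5, 151 and 82.8 CPM. *Birc3* had 24.7, 148 and 76.0 CPM against 9.24, 175 and 72.5 CPM, and its log2 fold change between the groups was 0.08.

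Of the death receptors, *Tnfrsf1a*, which encodes TNFR1, the main receptor for TNF, was by far the most abundant. It had 93.5, 128 and 113 CPM in AAV-CTRL against 25.4, 84.6 and 75.3 CPM in AAV-VEGF-C, without overlap. The log2 fold change was -0.82 (SE 0.42) with an edgeR adjusted p of 0.251, and the drop was largest in experiment 1 (-1.86, against -0.59 and -0.58). *Fas*, the receptor for FAS ligand, had 18, 41 and 126 counts against 0, 2 and 8 counts, or 2.89, 5.21 and 8.53 CPM against 0, 1.43 and 2.30 CPM. Its AAV-VEGF-C values lay at or near the counts expected from background, at 0, 1.06 and 2.43 times. *Tnfrsf10b*, which encodes the TRAIL receptor DR5, overlapped at 10.4 to 20.4 CPM and 10.4 to 14.3 CPM.

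The adaptors overlapped as well. *Ripk1*, which encodes the kinase that steers TNFR1 towards survival or death, had 65.4, 114 and 90.1 CPM against 41.6, 86.0 and 73.3 CPM. *Fadd* had 7.31 to 12.0 CPM and 8.60 to 11.6 CPM, and *Tradd* 6.09 to 11.1 CPM and 6.45 to 11.6 CPM. Counts of *Bcl2*, *Bcl2l2*, *Bax*, *Bak1*, *Bid*, *Bad*, *Bik*, *Bnip3*, *Casp2*, *Casp8*, *Casp9*, *Apaf1*, *Diablo*, *Fas*, *Fadd* and *Ripk1* are uncertain, because another annotated gene overlaps each of them and the use of strand in counting is not stated. None overlaps *Bbc3*, *Hrk*, *Bnip3l*, *Birc2*, *Birc3*, *Casp4* or *Tnfrsf1a*.

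A further list of 50 genes of the death pathways, which held other caspases, TNF ligands and receptors, the necroptosis and pyroptosis genes and the mitochondrial channels, was read off the same fit. Of these 41 were tested, 0 were higher and 1 was lower in AAV-VEGF-C (edgeR), against 10.5% and 0.659% of all genes. At an unadjusted p under 0.05, 2 were higher and 5 lower, against 19.0% and 9.11% of all genes. DESeq2 called 4 of 48 higher and 2 lower, against 5586 and 481 of 30053 genes. With voom the calls were 2 and 3 of 41, against 2380 and 267 of 17459 genes. With limma on log2 TPM they were 0 and 2, against 1112 and 434 of 17459 genes at a pseudocount of 1, and 1281 and 163 at 0.1. The gene called by edgeR was *Vdac1*, the main channel of the outer mitochondrial membrane. It was at 46.1, 40.6 and 47.7 CPM in AAV-CTRL against 13.9, 17.9 and 19.0 CPM in AAV-VEGF-C. Its log2 fold change was -1.37 (SE 0.27, edgeR adjusted p = 0.0235), and it was named after its values were seen. It was not called when scaled on the 2000 most abundant genes, at a mean of at least 5 TPM, after drawing down or with background subtracted. Nor was it called without AAV-CTRL 2, AAV-CTRL 3, AAV-VEGF-C 2 or AAV-VEGF-C 3 (edgeR adjusted p 0.0552 to 0.0772). The median of the 41 was -0.18. Between experiments 4 of them were called, *Tnf*, *Tnfrsf1b*, *Tnfaip3* and *Nlrp3*, or 9.76% against the 2.35% of all genes. *Tnf*, the ligand of TNFR1, had 4, 347 and 273 counts in AAV-CTRL against 0, 82 and 98 counts in AAV-VEGF-C, and *Nlrp3*, the inflammasome sensor that acts through caspase-1, had 7, 1563 and 1210 against 5, 310 and 294 counts. These genes were low in experiment 1 in both groups, as *Casp4* and *Birc3* were.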

How the data were processed

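RNA of sorted dural LECs, pooled from several mice a library, was sequenced after stranded library preparation with a low-input total RNA kit. Per the file headers, the tables the authors deposited hold estimated counts for each gene without any scaling, and the TPM of each gene, a length-corrected abundance. The submitters' processing notes name FastQC, Trimmomatic, DRAGEN, Picard and the build mm10. The use of strand and of molecular identifiers in counting is not given in the sources used here. Gene identifiers matched GENCODE M21 for 98.1% (99.5% without version). No table row lacked a gene name.

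Counts were rounded to whole numbers. Genes kept by filterByExpr were compared with the quasi-likelihood test of edgeR (4.0.16, R 4.3.3) after TMM scaling, with Benjamini-Hochberg adjustment over all genes at 0.05, and the listed genes were read off that fit. The script was first tested on simulated data. DESeq2 (1.42.0, the study's tool), limma (3.58.1) on log2(TPM + 1) and log2(TPM + 0.1), voom, other scalings and filters, drawn-down counts, subtracted background, the replicate block and leaving out each library were alternatives. Measures with 1 value a library were compared by exact permutation over the libraries, two-sided. The SE of a log2 fold change was taken from its F statistic. Totals of 564475 to 12399498 counts set the precision, and the floor of 3 counts covers counting error only. Libraries of a group differed by more than sampling noise in every pair (lowest chi-square divided by degrees of freedom 9.61).

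The groups share replicate numbers, which the labels tie to repeats of the experiment. After the group mean of each gene was removed, libraries with the same number correlated over genes (not independent replicates) with r of 0.37, 0.28 and 0.15, each above 0.1, so the numbers were taken to pair the libraries. Pairs with different numbers had r from -0.40 to 0.22, the highest of them (AAV-CTRL 3 with AAV-VEGF-C 2) above that of the pair numbered 3.

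The listed genes, the further lists and the tests were chosen with earlier results of these data known. All 37 genes are named with TPM, CPM or counts. A fold change with its SE and adjusted p is given for genes with an adjusted p under 0.05, and for those with a mean of at least 5 TPM whose CPM do not overlap between groups.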

Additional observations from a re-analysis of the deposited data

How the results depend on the processing

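No direction of *Bbc3*, *Hrk*, *Bnip3l*, *Birc2* or *Tnfrsf1a* reversed in any alternative that gave a value. *Bbc3* and *Hrk* were both called higher with size factors from DESeq2, with library sizes only, with factors from the 2000 most abundant genes, and with no filter, DESeq2, voom and the replicate block, and without both libraries of experiment 1. Neither was called with limma on log2(TPM + 1) or log2(TPM + 0.1), which made 0 calls among the 37 genes. With the filter at a mean of 5 TPM, the drawn-down counts and the subtracted background 0 of the 37 were called. *Hrk* could not be tested in any of these settings, and *Bbc3* only with the background subtracted. The filter left 17 and the drawing down 16 of the 37 genes to test. Over the whole table, drawing down left 7378 genes to test, of which 16 were called higher and 0 lower. The filter at a mean of 5 TPM left 7563, with 9 higher and 0 lower. The cause of the fewer calls was not tested.

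The replicate block, which pairs the libraries by experiment, kept both calls (adjusted p 0.0284 for *Bbc3* and 0.0193 for *Hrk*) and called 362 genes lower and 1 gene of the further list higher, with a median of the 37 genes at -0.38.

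The median log2 fold change of the 37 genes was -0.29 with DESeq2 size factors, -0.41 with library sizes only, 0.0308 with factors from the 2000 most abundant genes, -0.55 unfiltered, -0.14 at a mean of at least 5 TPM, -0.39 with DESeq2, -1.04 and -1.40 with limma (pseudocounts of 1 and 0.1), -0.29 with voom, -0.10 after drawing down, -0.26 after subtracting background, -0.38 without experiment 1, and -0.64 to -0.25 without each library in turn. The median of all genes in the same fit moved as well. It was -0.10 with library sizes only, 0.35 with factors from the 2000 most abundant genes and -0.72 and -1.04 with limma. The median of the 37 minus that of all genes was -0.35 to -0.31 with each of these, DESeq2 size factors, voom and the block. It was -2.43 unfiltered and -2.67 with DESeq2, where all genes had medians of 1.88 and 2.29. The cause of these moves was not tested.

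Of 17459 genes tested, 2054 were higher and 53 lower with library sizes only, and 2380 and 267 with voom. With factors from the 2000 most abundant genes 2336 were higher and 8 lower. The genes tested numbered 44563 with no filter, 30053 with DESeq2 and 15234 with background subtracted. Higher and lower genes numbered 9382 and 1175 with no filter, 9 and 0 at a mean of at least 5 TPM, 5586 and 481 with DESeq2, 1112 and 434 with limma at a pseudocount of 1, and 11 and 0 with background subtracted, and ran from 0 to 1771 and from 0 to 48 without each library. With no filter 1 of the 37 genes, *Bnip3l*, was called lower, and without each library 0 to 2 were called higher. In the further list the higher calls were 1 with library sizes only, 2 with factors from the 2000 most abundant genes, 5 with no filter, 4 with DESeq2, 2 with voom and 0 to 1 without each library. The lower calls there were 5 with no filter, 2 with DESeq2, 2 with limma at either pseudocount, 3 with voom, 0 to 1 without each library, and 0 with factors from the 2000 most abundant genes, at a mean of at least 5 TPM, after drawing down and with background subtracted.

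Genes of the 37 whose groups did not overlap numbered 3 lower and 6 higher with factors from the 2000 most abundant genes, 13 lower with no filter, 2 lower and 1 higher at a mean of at least 5 TPM, 0 and 0 after drawing down, 19 and 0 in TPM, 18 lower without experiment 1, and 9 to 14 lower and 3 to 5 higher without each library, where fewer libraries make overlap less likely. In TPM 36.4% of all genes tested were lower without overlap and 12.8% higher. For the other settings here the share over all genes was not computed, so these counts are no result about the 37. Between experiments 1113 of 44563 genes were called with no filter and 251 of 7563 at a mean of at least 5 TPM. Leaving out each library gave from 143 of 18220 (AAV-CTRL 2 left out) to 1367 of 18549 (AAV-VEGF-C 3 left out). In these settings 0 to 5 of the 37 were among them. The fold of the silent families ran from 17.0 to 29.8 without each library.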
